A study of Rattus norvegicus with 10 samples.

Results

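The hypoxia-inducible factor (HIF) pathway was examined in fetal rat hearts through 10 genes chosen by symbol, of 18025 genes listed in the deposited table. These were the alpha subunits Hif1a, Epas1 and Hif3a, the partners Arnt and Arnt2, the hydroxylases Egln1 and Egln3, the ubiquitin ligase gene Vhl, and the targets Vegfa and Adm. Their mRNA was compared between hearts of control pregnancies (CON, n = 5 libraries) and hearts of hyperglycemic pregnancies (HG, n = 5 libraries). The most marked difference was in Arnt2, whose mean level was 2.75 times as high in HG as in CON. Hif3a and Egln3 lay lower in every HG library than in any CON library, at 0.723 and 0.657 times the CON mean. Hif1a, Arnt and Vegfa did not pass the test.

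All hearts came from wild-type fetuses at embryonic day 19.5. The dams were Sprague-Dawley rats of 3 months mated with normoglycemic males. HG dams were given streptozotocin, a compound toxic to insulin-producing cells, into the abdomen on each of 3 days, and had a non-fasting glucose above 16 mM after 7 days. CON dams were given the citric acid buffer alone. The sources differ on whether the injections came before or after mating, so that exposure of the embryos to the compound itself cannot be told apart from maternal hyperglycemia. The labels call the samples heart tissue, whereas the study's legend for these data speaks of isolated cardiomyocytes and its methods of pooled RNA. They give neither the sex of the fetuses nor whether the hearts of a group came from separate litters, so that p-values measure the spread between these libraries.

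HIF is a transcription factor made of an oxygen-regulated alpha subunit and a stable beta subunit, the ARNT protein. With oxygen present, prolyl hydroxylases of the EGLN family modify the alpha subunit, VHL binds the modified form, and the proteasome degrades it, so that HIF activity is set mainly at the protein level and cannot be read from the mRNA of the alpha subunits. When oxygen is low, HIF binds short DNA motifs and raises genes for vessel growth, glycolysis and its own hydroxylases, and the pathway is known for guiding vessel and chamber formation in the fetal heart.

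The values are FPKM, read numbers scaled by gene length and by library depth, and each FPKM corresponded to a whole number of reads. A CON library held 17639895 to 18240006 reads on genes and an HG library 16672876 to 19109844. Genes were compared with limma on log2(FPKM + 0.1), and a gene is called here when its p, adjusted by the Benjamini-Hochberg method over all 14542 genes tested, was under 0.05. Fold changes on this scale understate those of genes with low FPKM. Calls were common in this comparison: 40.1% of the genes tested were called, 28.4% higher and 11.8% lower in HG. The median log2 fold change over all of them was 0.09, and it was 0.01 after scaling with median-of-ratios factors.

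Marker genes of the cell types of the heart were summed per library and compared with two-sided exact permutation tests, adjusted over 10 lists (smallest unadjusted p for 5 libraries against 5, 0.00794). Cardiomyocyte markers summed to 15817 to 16793 FPKM in CON and 13349.8 to 15934 in HG (adjusted p = 0.0529), with 7 of 8 called lower and Nppa called higher. Each of these 7 was lower in every HG library than in any CON library. Nppa, which is part of the sum, had a mean of 1733 FPKM in CON and 2855 in HG. Endothelial markers summed to 286.5 to 313.0 in CON and 296.9 to 326.2 in HG (adjusted p = 0.149), with 3 of 10 called, all higher. Under median-of-ratios scaling, 1 was called higher and 2 lower. The mural cell sum was higher in HG (852.5 to 1083) than in CON (695.3 to 807.4, adjusted p = 0.0397). Of its 6 genes, Acta2 (mean 538.2 FPKM in CON and 672.9 in HG) and Tagln were called higher. Rgs5 was called lower (mean 89.7 FPKM in CON and 72.2 in HG). With median-of-ratios factors, 2 of the 6 were called higher and 2 lower. The adjusted p was 0.125 for fibroblast, 0.0635 for epicardial, 0.388 for neuron and glia, 0.0794 for macrophage and 0.0595 for erythroid markers. The erythroid sum was 10561 to 19967 FPKM in CON and 8329 to 11673 in HG, with 9 of its 12 genes called lower. The other called erythroid genes, the embryonic globin genes Hbz and Hbe1, were higher in HG, at 17.9 and 4.91 times the CON mean, although globin genes are similar enough in sequence for reads to be split between copies. In the neuron and glia list, Phox2a, Th and Sox10 were under 0.1 FPKM, as were all 4 lung epithelium markers in the file (adjusted p = 0.810). Liver markers set 1 library apart: they summed to 77.4 FPKM in CON replicate 3, to 3.15 to 7.87 in the other CON libraries and to 1.33 to 2.60 in HG (adjusted p = 0.0397). The part of these differences in cell make-up in the values below was not tested.

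Of the 10 genes, which all passed the filter on low values, 7 were called, against 40.1% of all genes tested. The 10 were chosen with earlier results of these data known, so that the shares set side by side here are no test of the pathway. Arnt2, Vhl and Adm were higher in HG and Epas1, Hif3a, Egln1 and Egln3 lower, and the median over the 10 was -0.02. With median-of-ratios factors 6 were called, 2 higher and 4 lower, and with quantile normalization 5. The groups did not overlap in 3 of the 10 (Hif3a, Arnt2 and Egln3), against 27.4% of all genes tested. Arnt2 alone had a log2 fold change beyond 1 with an adjusted p under 0.05, the definition of a differentially expressed gene (DEG) in the study, which 1.94% of the genes tested met. The plot of FPKM by library shows the gap between the groups for these genes.

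**Figure D1:**
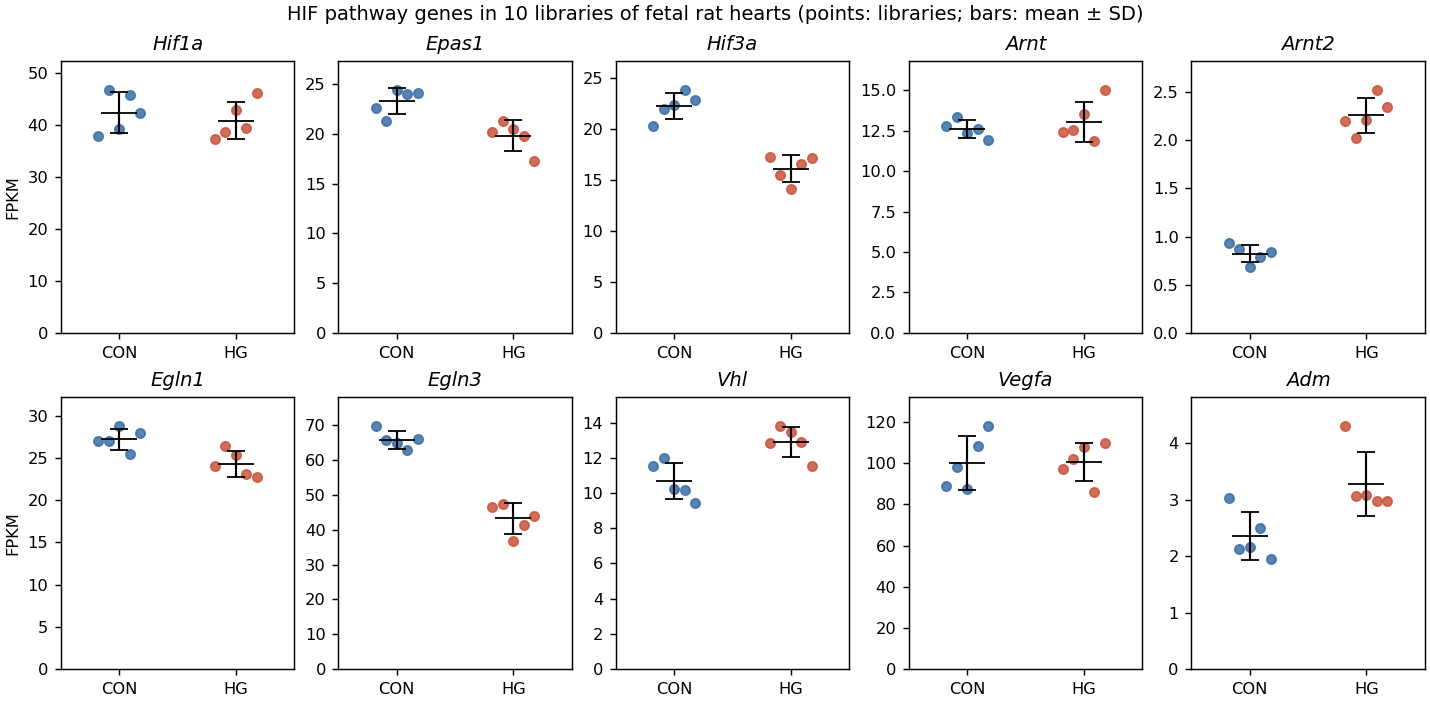
FPKM of the 10 HIF pathway genes (vertical axes, each starting at 0) in CON and HG hearts; each point is 1 library, with 5 in each group, and the bars are the mean ± SD. The groups are apart for Hif3a, Arnt2 and Egln3, and overlap for the other genes, with Vegfa at 100.1 in CON and 100.6 FPKM in HG.

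The windows around the start sites of the genes were read for the letters that HIF contacts, ACGTG or GCGTG on either strand. RefSeq start site windows of the rat build GRCr8, from 250 bases before to 50 bases after the start, were found for all 10 genes, with 12 windows in all because Hif3a and Vegfa have more than 1 start. The letters occurred in 4 of the 12 windows, those of Hif1a, Hif3a (1 of its windows), Arnt and Egln1. They occurred in 41.6% of 33469 windows of all genes and in 57.4% of 13372 windows of genes tested. Of the Hif3a windows, only that with the letters is printed below. The windows of Hif3a, Arnt2 and Egln3 are printed because the groups did not overlap for these genes, and that of Egln1 for comparison with its paralog. Each runs 5′ to 3′ along the gene's strand, which is the minus strand for all 4, and capitals mark the motif.
Hif3a (chr1:86877789-86878088): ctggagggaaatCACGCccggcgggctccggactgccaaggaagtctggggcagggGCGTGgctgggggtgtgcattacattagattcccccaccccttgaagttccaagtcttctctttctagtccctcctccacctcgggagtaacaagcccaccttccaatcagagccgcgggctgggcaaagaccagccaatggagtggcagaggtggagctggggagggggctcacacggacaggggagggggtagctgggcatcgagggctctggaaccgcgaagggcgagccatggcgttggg
Arnt2 (chr1:147801834-147802133): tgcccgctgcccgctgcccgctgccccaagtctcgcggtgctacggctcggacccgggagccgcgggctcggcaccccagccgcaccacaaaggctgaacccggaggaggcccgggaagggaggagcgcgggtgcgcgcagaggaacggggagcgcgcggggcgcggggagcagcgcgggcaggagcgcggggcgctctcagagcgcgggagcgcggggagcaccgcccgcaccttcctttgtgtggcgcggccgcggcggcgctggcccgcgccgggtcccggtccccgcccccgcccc
Egln1 (chr19:69804632-69804931): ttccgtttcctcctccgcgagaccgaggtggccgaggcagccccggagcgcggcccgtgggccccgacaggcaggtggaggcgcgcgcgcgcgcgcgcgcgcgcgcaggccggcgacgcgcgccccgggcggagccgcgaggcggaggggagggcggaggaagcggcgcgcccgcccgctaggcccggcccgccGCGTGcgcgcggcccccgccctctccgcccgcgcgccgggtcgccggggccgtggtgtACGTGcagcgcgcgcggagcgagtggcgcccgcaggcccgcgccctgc
Egln3 (chr6:77410966-77411265): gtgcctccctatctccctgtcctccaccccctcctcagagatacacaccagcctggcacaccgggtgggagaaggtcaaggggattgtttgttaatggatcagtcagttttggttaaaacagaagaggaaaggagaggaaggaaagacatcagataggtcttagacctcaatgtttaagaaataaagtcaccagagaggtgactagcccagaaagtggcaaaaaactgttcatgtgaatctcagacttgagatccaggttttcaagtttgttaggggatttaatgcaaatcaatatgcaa

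Counted from the start site, with the first transcribed base as 1, the matches began at bases -238 and -194 in Hif3a and at bases -56 and 3 in Egln1. Arnt held a single match at base -42. In Hif1a, matches at bases -229 and -228 overlap and form CACGTG, the E-box that many other factors of this class bind, and the third match began at base -164. The Arnt2 window was GC-rich, at 80.3% G or C, and that of Egln3 was not, at 44.7%. Windows of genes that were higher (Arnt2, Vhl, Adm) held none of these letters, and among the genes that were lower, the letters were in Hif3a and Egln1 but not in Epas1 or Egln3. A match or its absence in this window says nothing of binding further away.

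Of the alpha subunits, Hif1a (NCBI Gene 29560) encodes the broadly expressed subunit that drives the early response to low oxygen. Its level was 37.7, 46.6, 39.2, 45.6 and 42.3 FPKM in CON replicates 1 to 5 and 37.2, 38.7, 42.8, 39.3 and 46.1 FPKM in HG replicates 1 to 5. The groups overlapped over most of their range. The log2 fold change was -0.05 (SE 0.0712, 95% interval -0.21 to 0.10, adjusted p = 0.599), from 2814 to 3502 reads per library.

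Epas1 (NCBI Gene 29452), which encodes HIF-2α and is known for its high level in endothelial cells, fell by 0.23 on the log2 scale (SE 0.0594, adjusted p = 0.00834). Its level was 22.7, 21.3, 24.4, 24.0 and 24.1 FPKM in CON and 20.2, 21.3, 20.5, 19.8 and 17.3 FPKM in HG, so that the groups met only around 21.3 FPKM. In whole hearts, fewer cells of a type and less RNA per cell cannot be told apart. The endothelial marker sum given above had a log2 ratio of HG to CON of 0.06, and of -0.03 with median-of-ratios factors. Its relation to the level of Epas1 was not tested.

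Hif3a (NCBI Gene 64345) encodes an alpha subunit with splice forms that restrain the other alpha subunits. CON libraries read 20.2, 22.0, 22.4, 23.8 and 22.8 FPKM and HG libraries 17.2, 15.5, 14.0, 16.5 and 17.1 FPKM. Every HG library was below every CON library, and the decrease was by 0.47 on the log2 scale (SE 0.0622, adjusted p = 0.000130). Gene-level FPKM do not separate its splice forms.

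The 3 alpha subunit genes summed to 87.8 ± 4.81 FPKM (SD, n = 5) in CON and to 76.7 ± 2.36 in HG. Hif1a made up 48.1 ± 2.42% of this sum in CON and 53.1 ± 3.06% in HG, Epas1 26.6 ± 1.94% and 25.9 ± 2.61%, and Hif3a 25.3 ± 0.587% and 21.0 ± 1.83%. To compare the subunits independently of the scaling of a library, the log2 ratio of their levels within each library was tested with a two-sided exact permutation test, adjusted over 4 such ratios. The ratio of Hif3a to Hif1a was -0.92 ± 0.102 in CON and -1.34 ± 0.186 in HG, without overlap (exact p = 0.00794, adjusted p = 0.0106). For Epas1 to Hif1a it was -0.86 ± 0.178 in CON and -1.04 ± 0.224 in HG, with overlap (difference -0.18, exact p = 0.222, adjusted p = 0.222).

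Arnt (NCBI Gene 25242), the beta subunit shared by HIF and the dioxin receptor, was 12.8, 13.4, 12.3, 12.6 and 11.9 FPKM in CON and 12.4, 12.5, 13.5, 11.9 and 15.0 FPKM in HG. HG replicate 5 was the highest of the 10 libraries, and the rest of the HG values lay close to the CON values. The log2 fold change was 0.05 (SE 0.0631, 95% interval -0.09 to 0.18, adjusted p = 0.588), which turned to -0.04 with median-of-ratios factors or quantile normalization and to -0.0040 without HG replicate 5.

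Arnt2 (NCBI Gene 25243) encodes a closely related partner that is known mainly from neurons and the hypothalamus. Its level was 0.931, 0.876, 0.687, 0.788 and 0.836 FPKM in CON and 2.20, 2.03, 2.22, 2.52 and 2.34 FPKM in HG. The lowest HG library lay above the highest CON library by more than the whole range of CON. The log2 fold change was 1.36 (SE 0.102, 95% interval 1.14 to 1.58, adjusted p = 2.25e-06), from 82 to 301 reads per library. It lay between 0.84 and 1.45 over 21 alternatives and was called in all 21, the lowest being that with a pseudocount of 1, under which Arnt2 was not a DEG. The neuron and glia marker sum, which holds genes of the cells where Arnt2 is known best, was 8.73 to 9.59 FPKM in CON and 7.92 to 10.2 FPKM in HG, with 3 of its genes called (1 higher, 2 lower).

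Arnt remained the more abundant of both partners in every library, but the balance between them shifted. The log2 ratio of Arnt2 to Arnt was -3.79 ± 0.134 in CON and -2.48 ± 0.174 in HG (SD, n = 5), without overlap (two-sided exact permutation test, p = 0.00794, adjusted p = 0.0106). Arnt2 made up 6.13 ± 0.589% of the FPKM of both in CON and 14.8 ± 1.62% in HG. The sum of both was 13.4 ± 0.593 FPKM in CON and 15.3 ± 1.26 in HG.

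The genes whose levels followed that of Arnt2 most closely over the 10 libraries, of 11709 genes whose mean reached 1 FPKM, were Ccnb1 (Pearson r = 0.995), H3f3b (0.993) and Pimreg (0.993) on the log2(FPKM + 0.1) scale. Ccnb1 encodes the mitotic cyclin B1, H3f3b the histone H3.3 and Pimreg a regulator of mitosis. Ccnb1 was at 33.4 ± 1.40 FPKM in CON and 50.4 ± 1.88 in HG, H3f3b at 134.6 ± 4.78 and 185.2 ± 4.92, and Pimreg at 18.6 ± 1.11 and 33.4 ± 2.42. Whether reads of H3f3b were split with those of related histone genes was not tested. These coefficients contain the difference between the groups. For the deviations from the group means they were 0.820, 0.770 and 0.806, among libraries that share depth and composition effects. The genes were chosen by coefficients that contain these same deviations, so that the choice itself favours high values here.

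**Figure D2:**
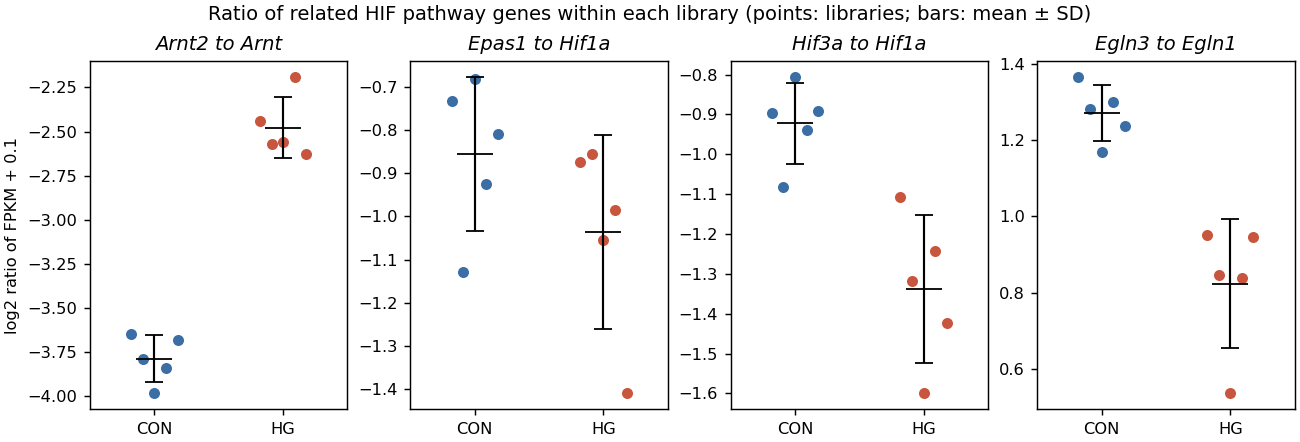
Log2 ratio of the FPKM + 0.1 of related HIF pathway genes within each library (vertical axes, not starting at 0), for CON and HG; points are libraries, 5 in each group, and bars are the mean ± SD. Arnt2 to Arnt was higher in every HG library, Hif3a to Hif1a and Egln3 to Egln1 were lower in every HG library, and Epas1 to Hif1a overlapped.

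The EGLN prolyl hydroxylases use oxygen to mark the alpha subunits for destruction, and Egln3 is both a hydroxylase and a well-known HIF target. Egln3 (NCBI Gene 54702) was 69.7, 65.9, 64.8, 62.8 and 65.9 FPKM in CON and 46.5, 47.5, 36.8, 41.3 and 44.0 FPKM in HG. Its highest HG value was well below its lowest CON value, and the gene fell by 0.61 on the log2 scale (SE 0.0628, adjusted p = 2.17e-05).

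Egln1 (NCBI Gene 308913), which encodes the main oxygen sensor of the family (PHD2), fell by 0.16 on the log2 scale (SE 0.0498, adjusted p = 0.0211). It was 27.0, 27.0, 28.8, 25.4 and 27.9 FPKM in CON and 24.0, 26.4, 25.4, 23.0 and 22.8 FPKM in HG, with an overlap between 25.4 and 26.4 FPKM. Without CON replicate 3, the library with the high liver markers, the log2 fold change was -0.14 and the adjusted p 0.0548.

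Egln3 was lower relative to Egln1 as well. The log2 ratio of Egln3 to Egln1 was 1.27 ± 0.0734 in CON and 0.82 ± 0.169 in HG, without overlap (two-sided exact permutation test, p = 0.00794, adjusted p = 0.0106). The third member, Egln2, was at 20.4 ± 0.786 FPKM in CON and 21.3 ± 0.761 in HG (log2 fold change 0.06, adjusted p = 0.252), a difference that turned to -0.03 with median-of-ratios factors and -0.01 with quantile normalization. The sum of the 3 was 113.4 ± 3.18 FPKM in CON and 88.8 ± 4.39 in HG. The share of Egln3 in this sum was 58.0 ± 1.17% in CON and 48.6 ± 3.03% in HG, and those of Egln1 and Egln2 were 24.0 ± 0.810% and 18.0 ± 0.742% in CON and 27.4 ± 1.56% and 24.0 ± 1.71% in HG.

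Vhl (NCBI Gene 24874), the substrate-binding part of the ligase that marks hydroxylated alpha subunits, rose by 0.27 on the log2 scale (SE 0.0710, adjusted p = 0.00907). Its level was 11.6, 12.0, 10.3, 10.2 and 9.44 FPKM in CON and 12.9, 13.8, 13.4, 12.9 and 11.5 FPKM in HG. HG replicate 5 lay within the CON range and the other HG libraries above it. This call depended on the scaling, since the log2 fold change was 0.18 with median-of-ratios factors (adjusted p = 0.0756) and 0.19 with quantile normalization (adjusted p = 0.0753).

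Vegfa (NCBI Gene 83785), the main signal for vessel growth and a classical HIF target, had the highest level of the 10 genes. It was 88.9, 98.2, 87.4, 108.2 and 118.0 FPKM in CON and 97.2, 102.1, 107.7, 86.2 and 109.7 FPKM in HG. The groups covered nearly the same range. The log2 fold change was 0.01 (SE 0.0872, 95% interval -0.18 to 0.20, adjusted p = 0.933) and had the opposite sign in 7 of 21 alternatives, among them -0.08 with median-of-ratios factors.

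Adm (NCBI Gene 25026) encodes adrenomedullin, a vasodilator peptide needed for fetal vessels and heart. Its level was 3.02, 2.13, 2.17, 2.50 and 1.96 FPKM in CON and 4.30, 3.06, 3.07, 2.98 and 2.98 FPKM in HG. HG replicate 1 stood above the rest, and CON replicate 1 reached the range of the other HG libraries. Adm rose by 0.46 on the log2 scale (SE 0.131, adjusted p = 0.0142), from 48 to 114 reads per library. Without HG replicate 1 the log2 fold change was 0.36 (adjusted p = 0.0299), with median-of-ratios factors it was 0.38 (adjusted p = 0.0467), and with quantile normalization it was 0.36 and not called (adjusted p = 0.0577).

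**Figure D3:**
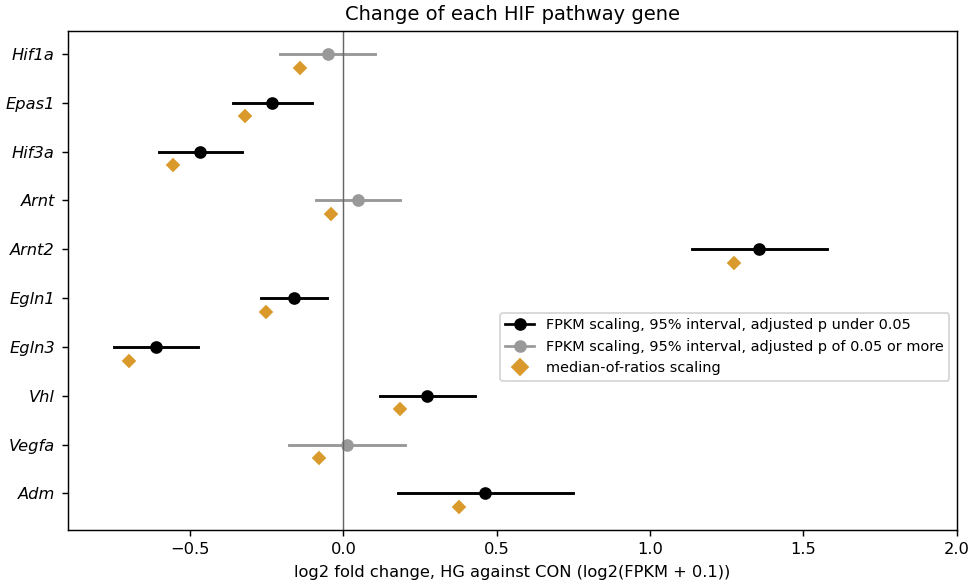
Log2 fold change of each HIF pathway gene, HG against CON, on the log2(FPKM + 0.1) scale (horizontal axis). Circles with 95% intervals are the values from FPKM, black where the adjusted p was under 0.05, and diamonds are the values with median-of-ratios factors, which lay below the circles for all 10 genes and took Arnt and Vegfa across 0.

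Within a group, the levels of the 10 genes varied by different amounts. The coefficient of variation over 5 libraries was highest for Adm, at 17.9% in CON and 17.4% in HG, and was 13.0% and 9.33% for Vegfa. For the genes whose groups did not overlap it was 5.85% and 8.28% (Hif3a), 11.2% and 8.11% (Arnt2) and 3.82% and 9.995% (Egln3). In CON, the order of the mean levels was Vegfa, Egln3, Hif1a, Egln1, Epas1, Hif3a, Arnt, Vhl, Adm and Arnt2. Epas1 and Hif3a, at 23.3 ± 1.31 and 22.2 ± 1.30 FPKM, overlapped in CON, and lay apart in HG at 19.8 ± 1.53 and 16.1 ± 1.33 FPKM, where only HG replicate 5 of Epas1 came near the Hif3a values. Hif1a at 40.8 ± 3.61 FPKM and Egln3 at 43.2 ± 4.32 overlapped in HG, whereas they lay far apart in CON at 42.3 ± 3.89 and 65.8 ± 2.52. Arnt and Vhl overlapped in both groups, at 12.6 ± 0.546 and 10.7 ± 1.05 FPKM in CON and at 13.1 ± 1.24 and 12.9 ± 0.862 in HG.

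A further 93 genes of the pathway, in 6 lists by role, were counted in the same comparison. In the file 92 were listed, 88 passed the filter and 38 of the 88 (43.2%) were called, 26 higher and 12 lower in HG, with a median log2 fold change of 0.08. This share lies near the 40.1% of all genes tested, and the median near their 0.09. With median-of-ratios factors 25 were called, 11 higher and 14 lower, so that the predominance of higher genes was not kept. Over all genes, the same change took the share of calls that were higher from 70.7% to 47.4%.

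Among 16 genes that regulate HIF (hydroxylases, ligase parts, deubiquitinases and coactivators), 5 were called higher and 1 lower (median 0.06), and with median-of-ratios factors 0 were called higher and 2 lower. The count also fell to 3 without CON replicate 1 or CON replicate 5 and to 2 without CON replicate 3 or HG replicate 3, and it was 3 with hemoglobin genes left out or with the replicate block. The gene called lower was Cited4, which encodes a CBP/p300-binding protein of the CITED family, members of which compete with HIF for these coactivators. It was 63.9, 49.2, 55.8, 58.2 and 63.5 FPKM in CON and 31.3, 33.9, 34.2, 36.8 and 27.8 FPKM in HG. Every HG library was below every CON library, and the decrease was by 0.82 on the log2 scale (SE 0.0832, adjusted p = 1.93e-05). Hif1an, the asparagine hydroxylase that blocks coactivator binding (FIH), was at 15.9 ± 1.11 FPKM in CON and 15.8 ± 1.23 in HG (log2 fold change -0.01, adjusted p = 0.899), a sign that turned without CON replicate 4, HG replicate 2 or HG replicate 3. Of 7 other partners of ARNT proteins, 3 passed the filter and 0 were called by limma (median -0.15), with 0 at an unadjusted p under 0.05 and 0 called by voom on the recovered reads. Ahr, the dioxin receptor gene, was at 2.61 ± 0.377 FPKM in CON and 2.37 ± 0.480 in HG (adjusted p = 0.451). Ahrr, Sim1, Sim2 and Npas1 were below the filter of 0.1 FPKM.

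Of 9 other genes of the VEGF system, 4 were called higher and 1 lower (median 0.12), and 2 were called with median-of-ratios factors or quantile normalization. Pgf, the placental growth factor, was at 1.19 ± 0.217 FPKM in CON and 1.76 ± 0.379 in HG (log2 fold change 0.52, adjusted p = 0.0219), with 24 to 61 reads per library and an overlap. It was not called with median-of-ratios factors, with quantile normalization or without CON replicate 3, HG replicate 2 or HG replicate 4. The receptor genes Flt1 and Kdr did not pass. Flt1 was at 7.29 ± 0.287 and 7.92 ± 0.558 FPKM (log2 fold change 0.12, adjusted p = 0.139, and 0.0350 without HG replicate 4), and Kdr was at 28.1 ± 1.52 and 29.4 ± 1.73 FPKM (log2 fold change 0.07, adjusted p = 0.330, and -0.02 with median-of-ratios factors). The other called genes, named after their values were seen, were Vegfb, a paralog that is rich in muscle and heart, the growth factor gene Vegfc, the receptor gene Flt4 and the co-receptor gene Nrp1. Vegfb was at 54.3 ± 1.84 FPKM in CON and 41.4 ± 2.54 in HG and fell by 0.39 on the log2 scale (adjusted p = 4.81e-05), without overlap.

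For adrenomedullin, 7 other genes of its system were tested, with 3 called higher and 1 lower (median 0.25). The counts were the same with median-of-ratios factors (median 0.17). Adm2, the gene of a related peptide, was at 0.238 ± 0.109 FPKM in CON and 0.620 ± 0.194 in HG, from 3 to 18 reads per library (log2 fold change 1.10, adjusted p = 0.0027). It also met the DEG definition, but its lowest HG value of 0.424 was under the highest CON value of 0.428. Its log2 fold change was 0.97 without HG replicate 1 and 0.38 with a pseudocount of 1, so that it was no DEG in either case, while it stayed called in both. Ackr3, which encodes a scavenger receptor for CXCL12 and adrenomedullin, was 8.39, 7.95, 9.39, 7.03 and 8.03 FPKM in CON and 12.9, 16.2, 14.7, 10.3 and 13.0 FPKM in HG. All HG libraries lay above the CON libraries (log2 fold change 0.70, adjusted p = 0.000399). The third gene called higher, named after its values were seen, was Gpr182, a further endothelial scavenger receptor (13.9 ± 1.33 and 18.8 ± 3.48 FPKM). The signalling receptor went the other way: Calcrl was at 6.40 ± 0.477 FPKM in CON and 5.29 ± 0.269 in HG and fell by 0.27 on the log2 scale (adjusted p = 0.00548), without overlap. Its partner Ramp2 was at 75.5 ± 5.68 and 79.0 ± 7.88 FPKM (log2 fold change 0.06, adjusted p = 0.495, and -0.03 with median-of-ratios factors).

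Of 35 further target genes, 34 were tested, with 9 called higher and 5 lower (median 0.07), and with 6 higher and 5 lower after median-of-ratios scaling (median -0.02). Angptl4, which encodes a secreted inhibitor of lipoprotein lipase and also answers to fatty acids through PPAR factors, had the highest fold change of the list. It was 0.485, 0.696, 0.443, 0.429 and 0.469 FPKM in CON and 2.25, 2.39, 2.45, 2.32 and 2.17 FPKM in HG, or 4.59 times as high by the means, with 16 to 90 reads per library. The log2 fold change was 2.01 (SE 0.122, adjusted p = 6.36e-07), and all HG libraries were above the CON libraries. Wsb1, a ubiquitin ligase adaptor gene, was 34.9, 34.2, 30.4, 31.4 and 33.1 FPKM in CON and 49.5, 49.7, 55.9, 44.0 and 55.9 FPKM in HG, again without overlap (log2 fold change 0.63, adjusted p = 2.39e-05).

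Hilpda, a lipid droplet gene, was higher in HG at 3.30 ± 0.210 FPKM than in CON at 2.16 ± 0.306 (log2 fold change 0.60, adjusted p = 0.000645), without overlap. Edn1, the gene of the vasoconstrictor endothelin-1, was at 3.201 ± 0.609 and 4.60 ± 1.14 FPKM with overlap (log2 fold change 0.50, adjusted p = 0.0244). It was not called with median-of-ratios factors, with quantile normalization or without CON replicate 2 or CON replicate 3. Ndufa4l2, which encodes a mitochondrial protein induced by HIF-1, went down from 7.80 ± 1.04 FPKM in CON to 4.93 ± 0.913 in HG. It fell by 0.66 on the log2 scale (SE 0.128, adjusted p = 0.00159), without overlap.

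Of 19 glycolytic targets, 5 were called higher and 4 lower (median 0.06), whereas 1 was called higher and 5 lower with median-of-ratios factors (median -0.03). Slc2a3, the glucose transporter GLUT3 gene, was 3.63, 4.00, 3.08, 3.93 and 3.46 FPKM in CON and 5.64, 5.27, 6.21, 5.71 and 4.89 FPKM in HG. Its groups did not overlap (log2 fold change 0.60, adjusted p = 0.000206). Aldoc, an aldolase gene, was at 22.3 ± 1.46 FPKM in CON and 14.9 ± 1.87 in HG and fell by 0.59 on the log2 scale (adjusted p = 0.000193), without overlap. The plot of fold changes by list shows called genes on both sides of 0 in all lists but that of ARNT partners.

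**Figure D4:**
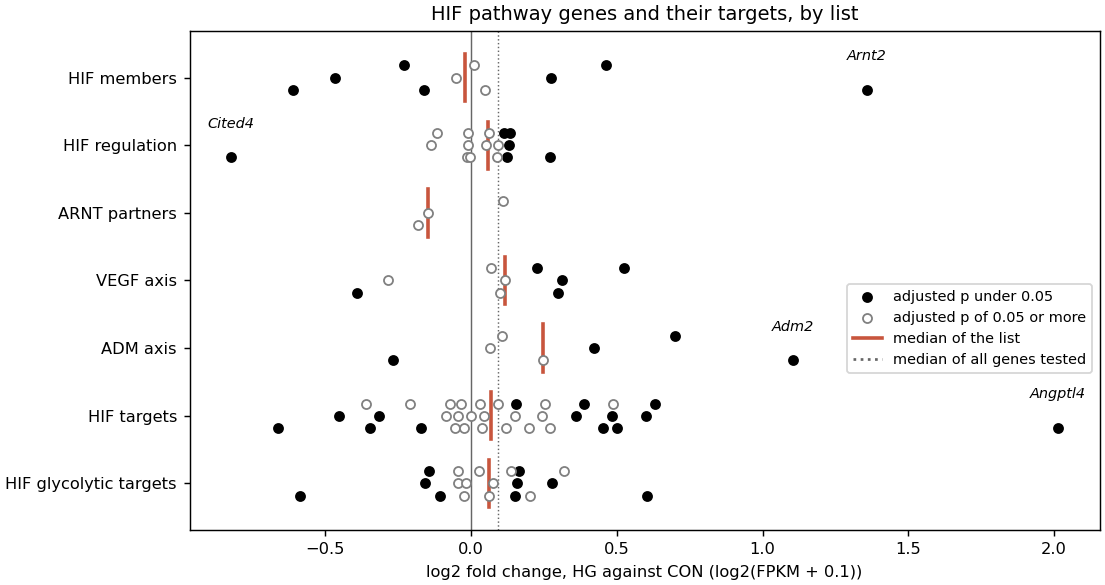
Log2 fold change, HG against CON, on the log2(FPKM + 0.1) scale (horizontal axis) for each gene tested of the 10 HIF pathway genes and of 6 further lists (rows). Filled points had an adjusted p under 0.05, vertical bars are list medians, between -0.15 and 0.25, and the dotted line is the median of all genes tested, 0.09; with median-of-ratios factors the medians of HIF regulation, HIF targets and glycolytic targets were below 0.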

How the data were processed

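Messenger RNA of fetal rat hearts was sequenced from 5 CON and 5 HG libraries made with a stranded mRNA kit. The authors deposited FPKM per gene, reads normalized to gene length and library size. The submitters' processing notes name fastp, HISAT2, HTSeq, R 3.2.0 and the build mRatBN7.2, without their roles. All per-sample columns were used (0 unused). Whole reads were recovered from the steps between FPKM values in 100% of 18025 genes (tolerance 0.02 reads), giving 16672876 to 19109844 reads per library, so that low genes rest on few reads.

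The test named in the study's methods needs raw counts. Instead, the genes that averaged 0.1 FPKM or more were fitted as log2(FPKM + 0.1) with limma 3.58.1 (empirical Bayes with a trend, no covariate) in R 4.3.3, with Benjamini-Hochberg adjustment. The calculation was tested on simulated data. Two-sided exact permutation tests were used for ratios within a library and for marker sums. Python 3.11.15, numpy 2.4.6, pandas 2.3.3 and matplotlib 3.10.9 were used.

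The members and lists were chosen with earlier results of these data known. Genes were matched by symbol, or by NCBI Gene identifier for Car9, Car12 and Robo4. Epo, Sftpb and Nkx2-1 were not analysed here, and single values of some marker genes are not reported here. Named genes are the 10 members, up to 6 called genes per list with an absolute log2 fold change above 0.5, the hydroxylase genes Egln2 and Hif1an, the receptor genes Flt1, Kdr, Calcrl and Ramp2, and the 3 genes most like each DEG among the members, others being marked. Marker lists covered endothelial, cardiomyocyte, fibroblast, epicardial, mural, neuron and glia, macrophage, erythroid, lung epithelium and liver cells. Start site windows came from RefSeq (GRCr8). No protein sequence was used here.

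The choices varied were the pseudocount (1 or 0.01), the filter (none or 1 FPKM), the scaling (median-of-ratios factors or quantile normalization), 12 hemoglobin genes (removed before scaling), the trend (not used), the replicate number as a block, the level of Y-linked genes as a covariate, voom on the recovered reads, and the libraries, of which all 10 were left out 1 at a time. For the marker sums, median-of-ratios factors and leaving out libraries were added after the data were seen.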

Additional observations from a re-analysis of the deposited data

Results flagged for a closer look

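Of 28 groups of 5 libraries examined for a single library far from the rest, 2 held one, where chance gives about 1 in 20 groups. Adm in HG replicate 1 was at 4.30 FPKM, above the other HG libraries by 0.928 of the range of the group, and the increase of Adm kept its call without it. The log2 ratio of Egln3 to Egln1 in HG replicate 3 was 0.54, below the other HG libraries by 0.729 of the range of the group.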

How the results depend on the processing

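Over 21 alternatives, Epas1, Hif3a, Arnt2 and Egln3 kept their direction and their call in all 21, Egln1 and Adm in 20 and Vhl in 19, and Hif1a was called in 0. The count of members called was 5 to 7. With a pseudocount of 1, 0 members were DEGs. With median-of-ratios factors, 25 further pathway genes were called, 11 of them higher. Signs turned for genes that were not called: Arnt (-0.0421 with median-of-ratios factors, -0.04013 with quantile normalization, -0.0040 to 0.0801 with 1 library left out), Vegfa (-0.0786, -0.00115 and, with hemoglobin genes left out, -0.0043, and -0.0357 to 0.0726 with 1 library left out), Egln2 (-0.0269 and -0.0138), Hif1an (-0.0571 to 0.0262 with 1 library left out), Kdr (-0.0229 with median-of-ratios factors) and Ramp2 (-0.0257 with median-of-ratios factors). Of the genes that regulate HIF, 2 to 5 were called with 1 library left out.

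Same-numbered libraries did not deviate together (correlations 0.206, -0.0609, -0.208, -0.0636 and 0.0624, and 1 of 10 libraries closest to its own number). No pairing by number was seen, although 5 libraries per group cannot exclude one. With the replicate block, 7 members and 36 further genes were called. The within-library ratios kept their differences of 1.31 (Arnt2 to Arnt), -0.42 (Hif3a to Hif1a) and -0.45 (Egln3 to Egln1) under the replicate block, where sign flips of 5 pairs cannot give an exact permutation p under 0.0625 (adjusted p = 0.0833).

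For log2 ratios of marker sums, tested without adjustment, the endothelial value was -0.0298 with median-of-ratios factors and 0.0433 to 0.0784 with 1 library left out. In the same order the values were -0.21 and -0.16 to -0.10 for fibroblast, 0.11 and 0.16 to 0.24 for epicardial, and 0.14 and 0.17 to 0.28 for macrophage markers. Neuron and glia markers were at -0.16 with median-of-ratios factors. With 1 library left out, erythroid markers were at -0.69 to -0.47, lung epithelium at -0.73 to 0.19 and liver at -3.64 to -1.61. The causes of these changes were not tested. Of the genes called and named, Adm, Adm2, Pgf and Angptl4 rest on few reads, with 3 to 114 per library. Some libraries were in the same range for Hilpda (64 to 141 reads), Edn1 (64 to 174), Ndufa4l2 (78 to 185) and Vegfc (84 to 131). This also held for Arnt2 (82 to 301) and Hbz (16 to 905).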
